A study of Homo sapiens with 6 samples.

Results

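Keratins are the intermediate filament proteins of epithelial cells, and the results below describe the 55 protein-coding keratin genes of a deposited table of 46427 genes, 19672 of them protein-coding. A gene was a member if its biotype was protein-coding and its symbol was KRT, a number and at most 1 letter, so the choice used no expression value. Type I (acidic) keratins numbered 29 and type II (basic to neutral) keratins 26. The type II genes and KRT18 lie together on chromosome 12 (27 members), and the other type I genes on chromosome 17 (28 members).

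A keratin filament is built from obligate pairs of a type I and a type II chain, and epithelia differ in the pairs they make. In stratified epithelia, such as that of the vagina, KRT5 with KRT14 is the pair of the basal layer, KRT1 with KRT10 that of cornifying suprabasal cells, and KRT4 with KRT13 that of non-cornifying mucosal suprabasal cells. KRT6A, KRT6B, KRT6C, KRT16 and KRT17 are known as stress keratins, which are raised in wounded, inflamed or hyperproliferating epidermis, and KRT8 with KRT18 is the pair of simple epithelia.

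RNA came from VK2/E6E7, an established human cell line from vaginal epithelium that carries the E6 and E7 genes of a papillomavirus and is labelled as wild type. Before RNA was taken, cells had spent 6 h with either PBS, the control, or 1e8 CFU/mL of the bacterium Lactobacillus salivarius HHuMin-U (HMU). Both groups were grown in keratinocyte serum-free medium with epidermal growth factor, bovine pituitary extract and antibiotics, and each had 3 biological replicates sequenced as stranded mRNA libraries. All 6 libraries are of this 1 line, so the replicates stand for cultures and not for donors, and in such bulk RNA fewer cells of a kind and less transcript per cell cannot be told apart.

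Total counts were 64292566 to 65957584 per library, so that 3 counts equal 0.0455 to 0.0467 counts per 1000000 (CPM) before scaling. Levels are CPM after TMM scaling, and a gene was called higher or lower at a Benjamini-Hochberg adjusted p under 0.05 in edgeR's quasi-likelihood test over the 17990 genes tested. The scaling sets the zero of every change: the median log2 fold change over all tested genes was -0.28 when libraries were scaled by their size alone, and keratin changes moved down by about as much. Of 8 squamous epithelial markers other than keratins, 8 were tested, with a summed level of 4035 to 4245 CPM in PBS and 4388 to 5142 CPM in HMU libraries; 2 were higher (CDH1, LAMB3) and 3 lower (DSG3, DSC3, GRHL2). The 6 fibroblast markers summed to 119.7 to 123.7 and 92.5 to 105 CPM, nearly all COL1A1, with COL1A2 at 0 after HMU. The 7 leukocyte markers summed to 58.3 to 60.7 and 121 to 137 CPM, nearly all CD68, with PTPRC at most 0.154 CPM. All 3 that were tested were higher (CD14 at log2 2.14, CD68 at 1.06 and ITGAM at 1.37). The endothelial, endocervical gland and neuroendocrine markers summed to at most 3.32, 1.72 and 1.46 CPM in any library, with TFF3, OLFM4 and INSM1 at 0. Of 4 endothelial markers tested, 3 were higher and 1 lower, and of 4 fibroblast markers tested, 2 were lower. PAX8, an endocervical gland marker, was higher. ITGAM, PECAM1 and CDH5 were kept for the test by the HMU group alone, and KDR and PDGFRB by the PBS group alone. Their calls are not separate from that choice. All these marker counts are to be read beside 24.8% higher and 24.9% lower over all genes tested. The part of other cells in the keratin results was not tested.

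HMU replicate 2 stood apart from the other HMU libraries, and it touches most type I keratins. Among keratins with at least 1 CPM in every HMU library, its level over the mean of HMU replicates 1 and 3 had a median ratio of 1.35 for the 12 type I keratins and 1.12 for the 17 type II keratins. Over all genes the same ratio followed transcript length, from 1.33 for longest transcripts under 1000 bases to 1.22 for 1000 to 2000 bases and 0.846 for 4000 bases or more, and ribosomal protein genes had 1.34. The type I keratins measured here had a median longest transcript of 1834 bases and the type II keratins one of 2451 bases. Results are therefore given without HMU replicate 2 wherever that changes a call or a direction or moves a called value by over 1.5 times. The part of library make-up in these differences was not tested.

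Of the 55 keratins, 42 had enough counts to be tested. Among them 21 were higher and 7 lower after HMU, against a background over all genes tested of 24.8% called higher and 24.9% called lower, or 49.7% in either direction. The fitted change was at least 2-fold for 14 keratins that rose and 5 that fell, where 8.07% and 7.46% of all genes tested had such a rise or fall. The 3 HMU levels lay all above the 3 PBS levels for 22 keratins and all below for 8, beside 30.3% and 32.0% of all genes tested. The median log2 fold change of the tested keratins was 0.47, against 0.00 over all genes. With library sizes only, 18 keratins were higher and 12 lower and their median was 0.18, beside 13.4% and 43.7% of all genes. Without HMU replicate 2, 21 were higher and 10 lower, the further calls being KRT9, KRT14 and KRT73. The share of all genes called without that library is not given here, so these 2 counts have no background beside them.

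The 13 untested members and the filter belong beside these counts. No counts at all were listed for 7 members (KRT12, KRT25, KRT26, KRT27, KRT28, KRT35 and KRT38), most of them inner root sheath or hair keratins, and the other 6 had at most 12 counts in a library. Of the 42 tested, 37 reached 10 counts in all libraries of both groups. KRT37 and KRT86 did so in the HMU group alone, KRT73 and KRT85 in the PBS group alone, and KRT36 in neither. The members that follow by name have a mean of at least 1 CPM in a group (34 keratins, of which 18 were higher and 5 lower), or were called with at least 0.1 CPM (5 more). These counts and the small counts by class below are to be read beside 24.8% higher and 24.9% lower over all genes tested.

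**Figure D1:**
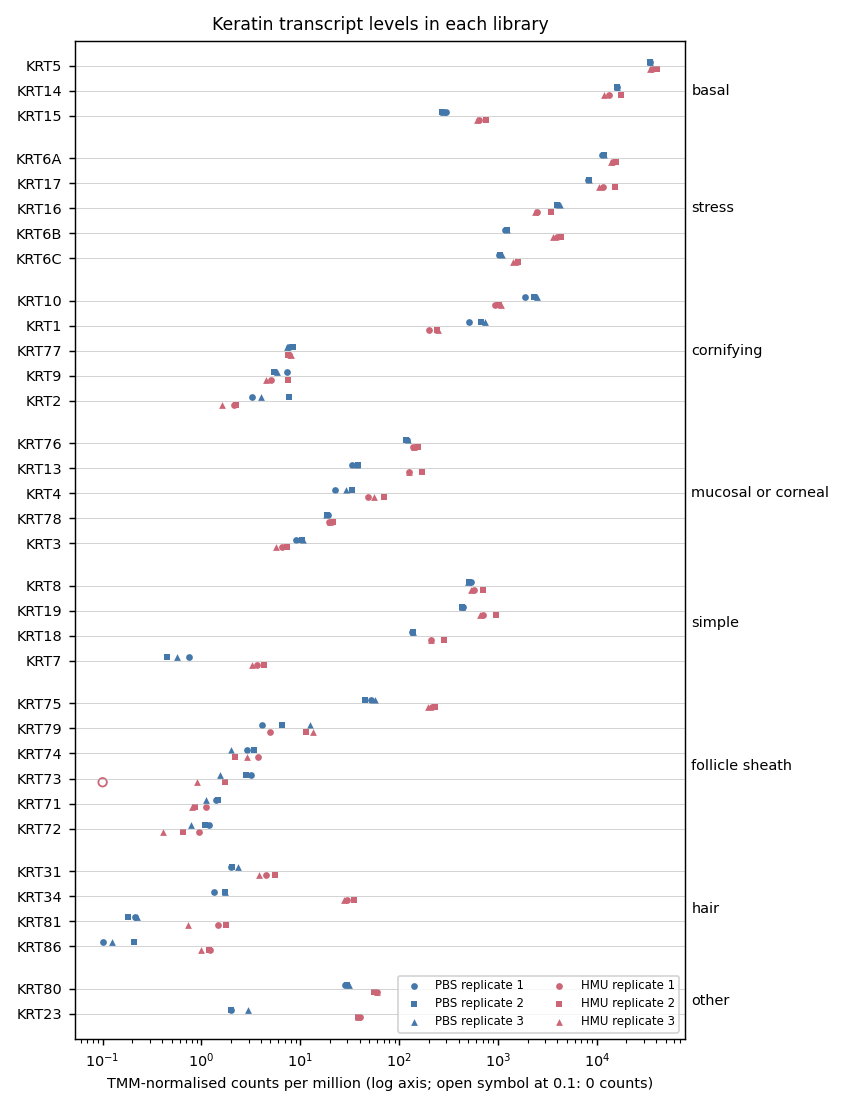
TMM-normalised level (CPM, log axis) of the 34 keratins with a mean of at least 1 CPM in a group, with each of the 3 PBS (blue) and 3 HMU (red) libraries as a point, ordered by class. Levels spanned more than 5 decades, from KRT5 at 34914 CPM to KRT86 at 0.0848 CPM in PBS replicate 1, and HMU replicate 2 (red squares) was the highest HMU library for most type I keratins.

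Keratins made up a large part of the transcript pool. Counts on the 55 genes were 8.90%, 9.09% and 9.12% of all counts in the PBS libraries and 7.97%, 9.32% and 7.59% in the HMU libraries, in the order of their replicate numbers, as throughout. The HMU libraries spread on both sides of the PBS libraries because HMU replicate 2 was the highest of the 6, and the difference in means of -0.741 percentage points had a two-sided exact permutation p of 0.4, where 3 libraries against 3 cannot go below 0.1; without HMU replicate 2 the difference was -1.25. By the deposited TPM, which is scaled by transcript length, keratins held 9.83% ± 0.201 of the total in PBS and 8.25% ± 0.493 in HMU libraries (SD, n = 3), with every HMU library below every PBS library (exact permutation p 0.1). The 4 most abundant keratins by TPM, KRT5, KRT14, KRT17 and KRT6A, kept that order in both groups and together held 86.2% of keratin TPM in each. Further down, KRT6B moved from rank 7 to rank 5, KRT10 from 6 to 9, KRT1 from 11 to 14, KRT34 from 28 to 18 and KRT23 from 26 to 19.

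The basal pair carried most keratin transcript in both groups. KRT5, the type II basal keratin, stood at 34914, 34998 and 35008 CPM in PBS and at 36193, 41234 and 34698 CPM in HMU libraries. These groups overlapped, and the log2 fold change of 0.10 (SE 0.070) did not pass the test (adjusted p 0.29). KRT5 was called lower with library sizes only (-0.19, adjusted p 0.033) and on log2(TPM + 1) (-0.31, adjusted p 0.014). KRT14, its type I partner, had 16072, 16021 and 16110 CPM in PBS and 13270, 17735 and 11930 CPM in HMU libraries. HMU replicates 1 and 3 lay below all PBS libraries and HMU replicate 2 above them, which gave -0.17 (SE 0.13, adjusted p 0.33); without HMU replicate 2 the value was -0.35 (adjusted p 7.3e-05). KRT14 was also called lower with library sizes only (-0.45, adjusted p 0.017) and on log2(TPM + 1) (-0.59, adjusted p 0.0031). KRT15, a type I keratin of basal and hair follicle bulge cells, rose 2.37-fold, from 296, 275 and 279 CPM to 646, 758 and 609 CPM (log2 1.25, SE 0.092, adjusted p 3.5e-05). All HMU libraries of KRT15 were above all PBS libraries, and the ratio of KRT15 to KRT14 TPM went from 0.0165 ± 0.000647 to 0.0444 ± 0.00391. MIR6510, a microRNA row inside the span of KRT15, held at most 0.922 CPM.

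Stress keratins differed among themselves: 4 of 5 rose and KRT16 fell. The copies are close in sequence, so 1 window of each is printed, the ungapped stretch of 60 coding bases of KRT6A in which KRT6B differs most, with bases that differ from KRT6A in capitals (GENCODE 29 transcripts, 5′ to 3′).
KRT6A: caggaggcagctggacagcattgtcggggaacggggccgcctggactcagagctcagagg
KRT6B: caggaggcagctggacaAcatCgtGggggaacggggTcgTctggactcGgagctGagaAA
KRT6C: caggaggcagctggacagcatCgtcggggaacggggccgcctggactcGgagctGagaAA
KRT6B has 9 differing bases in this window and KRT6C 5. Over the whole aligned transcripts KRT6A and KRT6C are 96.0% identical, KRT6A and KRT6B 93.9%, and KRT6B and KRT6C 94.6%, and of all 50-base windows of KRT6C, 53.6% also occur in another keratin gene (39.1% for KRT6A and 47.1% for KRT6B). For 100-base windows the share was 31.7% for KRT6C, 18.2% for KRT6A and 24.6% for KRT6B. The sources used here do not give how reads with several matches were counted, and the level of each copy is uncertain where reads could be split.

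KRT6B had the largest stress keratin change, from 1174, 1224 and 1244 CPM to 3926, 4344 and 3598 CPM, or 3.26-fold (log2 1.70, SE 0.080, adjusted p 3.8e-06). KRT6A, the most abundant copy, went from 11425, 11807 and 11807 CPM to 14753, 15750 and 13974 CPM (log2 0.34, SE 0.060, adjusted p 0.0025). KRT6C went from 1036, 1042 and 1102 CPM to 1577, 1610 and 1436 CPM (log2 0.54, SE 0.067, adjusted p 0.00046). For all 3 copies every HMU library was above every PBS library, but not every rise held on other scales. KRT6A stood at 0.06 with library sizes only (adjusted p 0.35) and at -0.06 on log2(TPM + 1), and KRT6C at 0.26 with library sizes only (adjusted p 0.0083) and at 0.14 on log2(TPM + 1) (adjusted p 0.079). Summed as 1 gene, which no split of reads among the copies can change, KRT6A, KRT6B and KRT6C had 13634, 14074 and 14151 CPM in PBS and 20255, 21707 and 19008 CPM in HMU libraries, a 1.46-fold rise (log2 0.54, SE 0.062, adjusted p 0.00032). KRT6B stood at 0.104 ± 0.00133 of the KRT6A TPM in PBS and at 0.267 ± 0.00918 in HMU libraries.

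KRT16 and KRT17 are the type I stress keratins, and both are close to KRT14. The printed window is the ungapped stretch of 60 coding bases of KRT14 in which KRT16 differs most, with bases that differ from KRT14 in capitals. It includes KRT16P6, a pseudogene named after KRT16 whose row is added to KRT16 below.
KRT14: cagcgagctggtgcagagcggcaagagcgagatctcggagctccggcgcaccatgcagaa
KRT16: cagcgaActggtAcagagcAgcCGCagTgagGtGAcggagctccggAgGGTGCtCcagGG
KRT17: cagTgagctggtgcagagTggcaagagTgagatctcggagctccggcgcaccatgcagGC
KRT16P6: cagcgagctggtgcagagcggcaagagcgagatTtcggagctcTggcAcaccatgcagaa
KRT16 has 19 differing bases, KRT17 5 and KRT16P6 3. Over the aligned transcripts KRT16P6 is 95.7% identical to KRT14 and 86.5% to KRT16, so despite its name it is nearer to KRT14. Of the 50-base windows of KRT16P6, 16.2% occur in another keratin gene, and of its 100-base windows 0.62%. KRT16 and KRT14 are 88.1% identical and KRT14 and KRT17 86.3%.

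KRT16 fell from 3952, 4001 and 4281 CPM to 2511, 3465 and 2401 CPM (log2 -0.55, SE 0.14, adjusted p 0.012). KRT17 rose from 8177, 8395 and 8445 CPM to 11491, 15472 and 10522 CPM (log2 0.58, SE 0.13, adjusted p 0.0087). The groups did not overlap for either gene, HMU replicate 2 was the highest HMU library for both, and without it the values were -0.73 and 0.40, each still called. The rise of KRT17 did not pass the test with library sizes only (0.30, adjusted p 0.074) or on log2(TPM + 1) (0.16, adjusted p 0.22). Within each library the ratio of KRT17 to KRT16 TPM, which no library scaling changes, was 2.26, 2.29 and 2.16 in PBS and 5.00, 4.88 and 4.79 in HMU libraries, so the ratio did not overlap and HMU replicate 2 lay between the other HMU libraries (exact permutation p 0.1, the smallest possible, and 0.114 adjusted over 8 pair ratios). Summed as 1 gene, KRT14, KRT16 and KRT17 had 28202, 28419 and 28833 CPM in PBS and 27270, 36674 and 24853 CPM in HMU libraries, a log2 fold change of 0.06 (SE 0.13, adjusted p 0.75) that became -0.23 with library sizes only and -0.13 without HMU replicate 2 (adjusted p 0.017).

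Keratin pseudogenes carried counts, and the call of KRT16 summed with its pseudogene rows depended on KRT16P6. The table lists 135 keratin pseudogene rows, of which 105 had counts and 20 were tested. Of these 20, 11 were higher and 1 lower, beside 24.8% and 24.9% of all genes tested. KRT16P6 went from 476, 524 and 461 CPM to 1102, 1275 and 948 CPM (log2 1.19, SE 0.11, adjusted p 0.00013) and KRT16P2 from 14.6, 15.5 and 14.3 CPM to 56.0, 63.5 and 48.0 CPM (log2 1.92, SE 0.11, adjusted p 1.1e-05). Both rows rose where KRT16 itself fell. With all KRT16 pseudogene rows added to KRT16, the log2 fold change was -0.19 and no longer passed the test (adjusted p 0.24; -0.34 and adjusted p 8.7e-05 without HMU replicate 2). With all of them but KRT16P6, it was -0.48 (adjusted p 0.019), a call that was lost without PBS replicate 2 (adjusted p 0.053), PBS replicate 3 (0.069) or HMU replicate 1 (0.067). Whether the pseudogene reads come from the pseudogenes or from KRT14 or KRT16 was not tested. Adding their pseudogene rows left KRT17 at 0.58, KRT18 at 0.78 and KRT8 at 0.23.

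**Figure D2:**
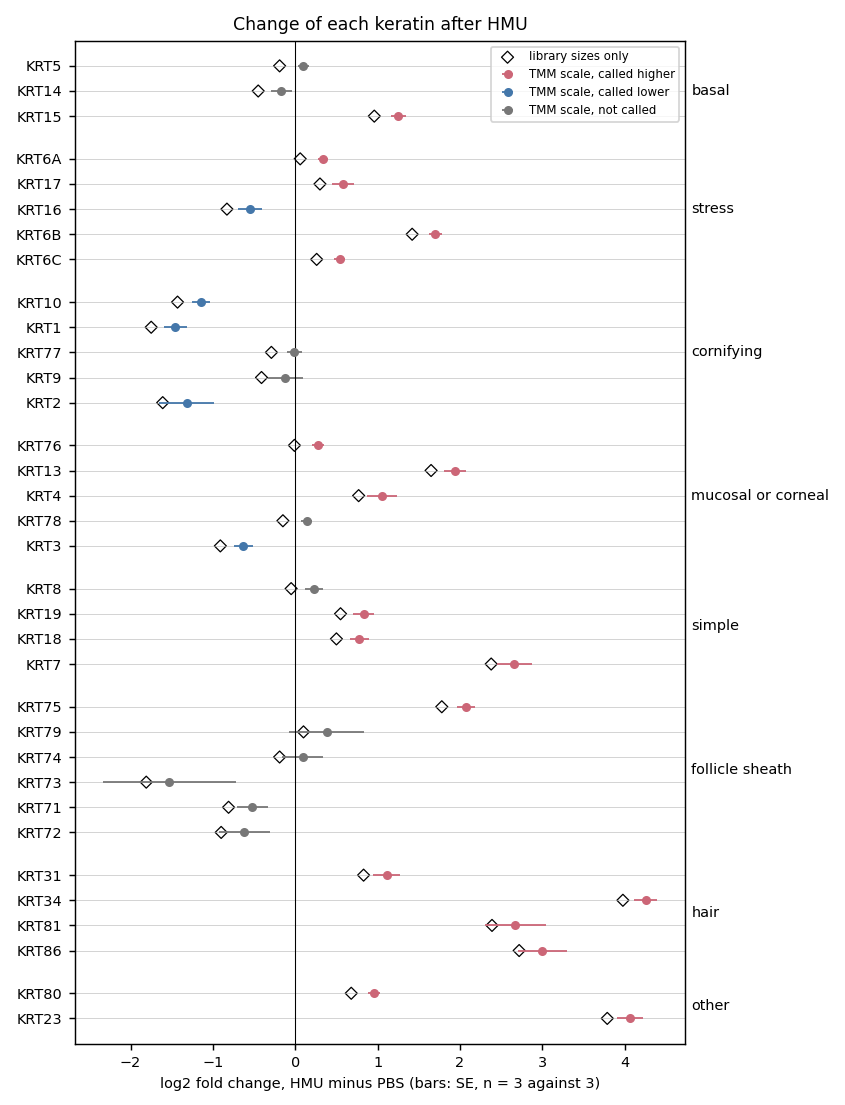
Log2 fold change (HMU minus PBS) of the 34 keratins with a mean of at least 1 CPM in a group, by class, with bars for the SE of the edgeR fit (n = 3 against 3); open diamonds show the same change with library sizes only. All 5 stress keratins but KRT16 lie to the right of 0, KRT1, KRT2 and KRT10 lie left of -1, as does KRT73, which did not pass the test, and the diamonds sit about 0.28 lower throughout, which takes KRT5, KRT76, KRT8, KRT74 and KRT78 across 0.

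Keratins classed here as cornifying suprabasal had 3 lower and 0 higher of 5. KRT1, the type II suprabasal keratin, fell 2.76-fold, from 511, 674 and 732 CPM to 203, 245 and 248 CPM (log2 -1.46, SE 0.14, adjusted p 0.00015). KRT10, its type I partner, fell 2.21-fold, from 1903, 2305 and 2489 CPM to 937, 1019 and 1073 CPM (log2 -1.14, SE 0.11, adjusted p 0.00012). In both genes PBS replicate 1 was the lowest PBS library and still lay above every HMU library. KRT10 was 4.02 ± 0.210 times KRT1 by TPM in PBS and 5.00 ± 0.264 times in HMU libraries, without overlap. KRT2, a keratin of the upper epidermal layers, fell from 3.28, 7.68 and 3.98 CPM to 2.14, 2.23 and 1.60 CPM (log2 -1.32, SE 0.33, adjusted p 0.012); PBS replicate 2 was far above the other PBS libraries, and without it the value was -0.87 (adjusted p 0.014). KRT77 had 7.73, 8.41 and 7.27 CPM in PBS and 7.73, 7.45 and 8.03 CPM in HMU libraries, which overlapped (log2 -0.01, adjusted p 0.92; -0.29 and adjusted p 0.031 with library sizes only). KRT9, a keratin of palm and sole epidermis, also overlapped, at 7.29, 5.43 and 5.76 CPM against 5.01, 7.47 and 4.52 CPM (log2 -0.12, adjusted p 0.65; -0.37 and adjusted p 0.045 without HMU replicate 2). TMEM99, a non-coding RNA row whose span overlaps KRT10, held at most 12.5 CPM in any library and was not called (log2 -0.10, adjusted p 0.50).

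Mucosal and corneal keratins had 3 higher and 1 lower of 5 tested, at far lower levels. KRT13, the type I mucosal keratin, rose 3.82-fold, from 33.5, 38.8 and 37.9 CPM to 127, 169 and 125 CPM (log2 1.94, SE 0.13, adjusted p 2.5e-05). KRT4, its type II partner, rose 2.07-fold, from 22.5, 33.6 and 28.8 CPM to 49.0, 70.9 and 56.4 CPM (log2 1.05, SE 0.18, adjusted p 0.0022). Neither gene's groups overlapped, and the ratio of KRT13 to KRT4 TPM went from 1.65 ± 0.209 to 3.00 ± 0.239. KRT3, the type II keratin of corneal epithelium, fell from 9.03, 10.5 and 10.7 CPM to 6.51, 7.31 and 5.72 CPM (log2 -0.63, SE 0.12, adjusted p 0.0038), while KRT12, its type I partner, had 0 counts in every library. KRT76, known from the palate and gingiva, was higher on the TMM scale, at 119.6, 118.2 and 123.7 CPM against 138, 157 and 143 CPM (log2 0.28, SE 0.071, adjusted p 0.014), but was -0.01 with library sizes only (adjusted p 0.94), and the call was lost without PBS replicate 1 (adjusted p 0.064) or PBS replicate 2 (0.069). KRT78 had 18.9, 18.4 and 18.3 CPM in PBS and 19.6, 21.3 and 20.2 CPM in HMU libraries, all above the PBS libraries, a difference that did not pass the test (log2 0.14, adjusted p 0.14; -0.15 with library sizes only).

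Simple epithelial keratins had 3 higher and 0 lower of 4 tested. KRT18 rose 1.72-fold, from 136, 137 and 139 CPM to 213, 287 and 208 CPM (log2 0.78, SE 0.12, adjusted p 0.0016). KRT8, its type II partner, had 533, 513 and 503 CPM in PBS and 576, 714 and 531 CPM in HMU libraries, where HMU replicate 3 fell within the PBS range (log2 0.23, SE 0.11, adjusted p 0.11; -0.05 with library sizes only). The spans of these neighbours share 1006 bases, and whether counting used strand is unstated. By TPM, KRT18 was 0.339 ± 0.0135 of KRT8 in PBS and 0.494 ± 0.0213 in HMU libraries, without overlap. KRT19, a small type I keratin without most of the tail domain, rose 1.78-fold, from 441, 431 and 429 CPM to 699, 953 and 659 CPM (log2 0.83, SE 0.13, adjusted p 0.0017). KRT7, a type II keratin of glandular and transitional epithelia, rose 6.32-fold from a trace level of 0.749, 0.447 and 0.569 CPM, or 32 to 53 counts, to 3.68, 4.28 and 3.22 CPM (log2 2.66, SE 0.21, adjusted p 5e-05). KRT7-AS, its antisense row, held at most 0.0522 CPM. KRT20, an intestinal keratin, had at most 11 counts in a library and was not tested.

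Hair keratins, which normally build the hair shaft, held at most 2.37 CPM in any PBS library, and 7 of the 11 tested were higher and 1 lower after HMU. Of these, KRT37 and KRT86 reached 10 counts in all libraries of the HMU group alone, and KRT85 in those of the PBS group alone. Each was thus kept for the test by the group in which it was high, and its call is not separate from that choice. Without a filter on low counts, edgeR's adjusted p was 0.0027 for KRT37, 0.00039 for KRT86 and 0.032 for KRT85. These p-values rest on the same counts. KRT34, a type I hair keratin (gene ID 3885, chromosome 17 from 41377669 to 41383816), rose 19.2-fold, from 1.33, 1.72 and 1.75 CPM to 29.7, 34.7 and 27.8 CPM (log2 4.26, SE 0.14, adjusted p 8.6e-07). This was the largest rise among keratins with at least 1 CPM, and the 3 HMU libraries lay close together. KRT31 rose 2.16-fold, from 2.01, 2.04 and 2.37 CPM to 4.54, 5.55 and 3.81 CPM (log2 1.11, SE 0.16, adjusted p 0.0011). KRT33A rose from 0.156, 0.168 and 0.166 CPM to 0.388, 0.505 and 0.561 CPM (adjusted p 0.002) and KRT33B from 0.297, 0.279 and 0.416 CPM to 0.827, 0.905 and 0.874 CPM (adjusted p 0.0015). Each of these type I genes had all HMU libraries above all PBS libraries. KRT37 had 0 counts in the PBS libraries and 12, 13 and 17 counts in the HMU libraries, at least 5.64-fold higher against a floor of 3 counts per library. KRT34 and KRT33B are 91.1% identical in their aligned transcripts, KRT34 and KRT31 88.9%, and KRT33A and KRT33B 94.6%, so reads could be split among them as well. Of the 50-base windows of KRT34, 11.4% occur in another keratin gene, and of its 100-base windows 0.847%.

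Among type II hair keratins, KRT81 rose from 0.212, 0.182 and 0.222 CPM to 1.47, 1.78 and 0.726 CPM (log2 2.67, SE 0.37, adjusted p 0.00081) and KRT86 from 0.0848, 0.210 and 0.125 CPM to 1.22, 1.18 and 0.990 CPM (log2 3.00, SE 0.30). Their transcripts are 92.5% identical and the KRT86 span holds all 5622 bases of KRT81, so these values are not separate. KRT85 went the other way, with 13, 10 and 16 counts in PBS and 0, 0 and 3 counts in HMU libraries, a ratio of 10.7 of PBS over HMU with a 95% counting interval from 3.42 to 54.4. Without PBS replicate 3 it had too few counts to be tested, and without HMU replicate 3 no HMU count is left, so that its fitted log2 change went from -3.29 to -6.61, a value that depends on the prior count and is no bound. Summed as 1 gene with KRT83, which had at most 7 counts in a library, the 4 copies rose from 0.579, 0.615 and 0.638 CPM to 2.68, 2.96 and 1.86 CPM (log2 2.03, SE 0.21, adjusted p 0.00018), and no HMU library reached down to the PBS range. KRT32, KRT36 and KRT84 were tested and not called, and the other 6 hair keratins were not tested.

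Keratins classed here with the hair follicle sheaths had 1 higher and 0 lower of 6 tested, and 5 were not called. KRT75, of the companion layer, rose 4.19-fold, from 51.5, 45.2 and 57.7 CPM to 218, 231 and 198 CPM (log2 2.07, SE 0.11, adjusted p 6.5e-06), with no overlap. The inner root sheath keratins KRT71, KRT72, KRT73 and KRT74 stood at 0.791 to 3.40 CPM in PBS libraries. KRT71 had 1.41, 1.48 and 1.12 CPM in PBS and 1.11, 0.870 and 0.808 CPM in HMU libraries, just short of the threshold (log2 -0.52, SE 0.19, adjusted p 0.055; -0.81 and adjusted p 0.009 with library sizes only). KRT73 had 225, 204 and 111 counts in PBS and 0, 99 and 55 in HMU libraries (log2 -1.53, SE 0.81, adjusted p 0.15; -2.46 and adjusted p 0.016 without HMU replicate 2); the count of 0 in HMU replicate 1 stood apart, and the antisense row KRT73-AS1 had 0 counts throughout. KRT72 had 1.20, 1.08 and 0.791 CPM in PBS and 0.945, 0.644 and 0.412 CPM in HMU libraries, which overlapped (log2 -0.62, adjusted p 0.14; -0.90 and adjusted p 0.039 with library sizes only). KRT74 (log2 0.09, adjusted p 0.78) and KRT79 (log2 0.38, adjusted p 0.52) overlapped between groups, and KRT79 spread from 4.08 to 12.4 CPM within the PBS libraries.

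The 3 remaining members belong to no such class. KRT23, a type I keratin known to be raised by histone deacetylase inhibitors in cancer cells, rose 16.8-fold, from 2.01, 2.01 and 2.95 CPM to 40.0, 38.8 and 38.5 CPM (log2 4.07, SE 0.16, adjusted p 1.4e-06). Every HMU library of KRT23 was above every PBS library, and HMU replicate 2 lay between the other HMU libraries. KRT80, a type II keratin of many epithelia linked to terminal differentiation, rose 1.95-fold, from 28.7, 29.5 and 31.4 CPM to 59.4, 55.4 and 59.8 CPM (log2 0.96, SE 0.072, adjusted p 3.7e-05). KRT222, a keratin-like type I gene, fell from 0.876, 0.685 and 0.971 CPM to 0.371, 0.278 and 0.231 CPM (log2 -1.52, SE 0.25, adjusted p 0.002), with no overlap.

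Promoters were examined for the 14 keratins with at least 1 CPM and a called change of at least 2-fold, of which the RefSeq promoter table (GRCh38.p14) holds 6. The 250 bases before the start of KRT34 and KRT31, neighbouring hair keratins that rose, and of KRT10, a suprabasal keratin that fell, are printed because these genes moved in opposite directions; all lie on the minus strand and are written 5′ to 3′ along the gene, with TATAAA in capitals. The start of KRT34 in that table lies inside the gene span given above and not at its end, so its window is not the one before the outermost start of the gene.
KRT34, chr17:41382307-41382556: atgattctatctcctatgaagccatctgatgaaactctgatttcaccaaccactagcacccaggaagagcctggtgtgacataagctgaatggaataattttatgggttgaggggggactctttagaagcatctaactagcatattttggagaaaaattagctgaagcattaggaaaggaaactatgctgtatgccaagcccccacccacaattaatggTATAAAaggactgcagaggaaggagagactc
KRT31, chr17:41397609-41397858: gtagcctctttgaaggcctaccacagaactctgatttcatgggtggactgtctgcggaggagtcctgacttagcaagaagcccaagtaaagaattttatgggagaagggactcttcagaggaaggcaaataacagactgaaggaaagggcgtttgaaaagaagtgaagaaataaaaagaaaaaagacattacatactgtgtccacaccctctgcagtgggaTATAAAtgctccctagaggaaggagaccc
KRT10, chr17:40822615-40822864: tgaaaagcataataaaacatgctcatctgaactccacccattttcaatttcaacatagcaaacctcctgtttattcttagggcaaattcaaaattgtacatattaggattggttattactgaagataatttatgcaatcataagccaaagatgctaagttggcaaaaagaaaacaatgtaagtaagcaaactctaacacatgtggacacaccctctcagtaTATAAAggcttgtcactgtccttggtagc
The motif TATAAA, chosen after the data were seen and searched on both strands, began 31 bases before the start in KRT34 and 29 bases before it in KRT31 and KRT10. In windows from 250 bases before to 50 bases after the start it occurred in 3 of the 6 promoters (not in KRT2, KRT4 or KRT75), in 20 of the 34 keratin promoters of the table, and in 12% of 27305 promoters. The AP-1 motif TGANTCA, which reads the same on both strands, occurred in 0 of the 6 and in 7.76% of all promoters, and the kappaB motif, searched on both strands, in 0 of the 6 and in 5.67%. So TATAAA was found upstream of keratins that rose and of a keratin that fell.

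Along the chromosomes, some called keratins had neighbours called in the same direction and others did not. On chromosome 12, KRT80, KRT7, KRT86 and KRT81, from 52168996 to 52309163, were all higher, and so were KRT75, KRT6B, KRT6C and KRT6A, from 52424070 to 52493257, with log2 fold changes that fell in that order from 2.07 to 0.34. KRT2 and KRT1, next to each other from 52644558 to 52680407, were both lower. Directions alternated at KRT76 (higher), KRT3 (lower) and KRT4 (higher). KRT85, lower, and KRT18, higher, had no called neighbour, and KRT83 beside KRT85 was not tested. On chromosome 17, the 5 hair keratins KRT33A, KRT33B, KRT34, KRT31 and KRT37, from 41346092 to 41424585, were all higher, as were KRT13, KRT15 and KRT19, from 41500981 to 41528308, whereas their next neighbours KRT9 and KRT14 were not called and KRT16, lower, lies beside KRT17, higher. KRT222, KRT10 and KRT23 had only untested keratin neighbours, which could not be called. Of all genes tested, 49.7% were called in one direction or the other. Copies in such runs are similar in sequence and can share reads, so they are not independent of each other, and these runs were noticed after the values were seen and were not tested.

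**Figure D3:**
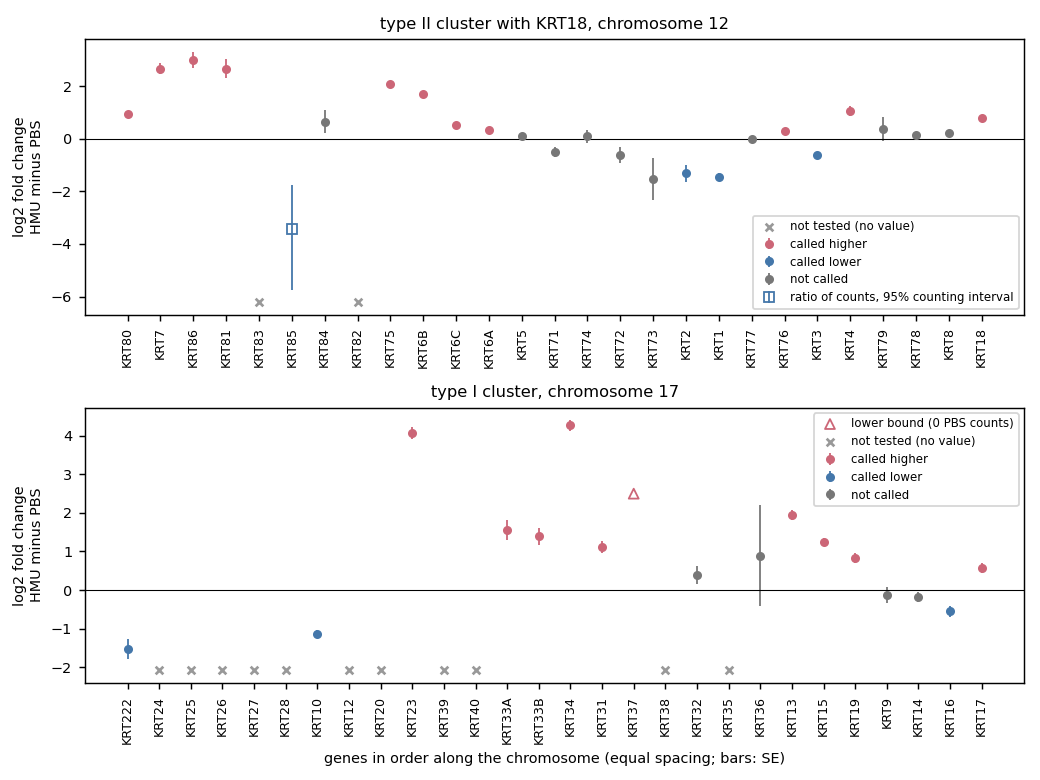
Log2 fold change (HMU minus PBS, bars SE of the edgeR fit) of the keratins in their order along chromosome 12 (above) and chromosome 17 (below), at equal spacing. KRT85 is drawn as its ratio of counts with a 95% counting interval and KRT37 as a lower bound, and crosses at the bottom mark the 13 untested genes, which have no value; the neighbours KRT75 to KRT6A and KRT33A to KRT37 lie above 0.

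The make-up of the keratin pool can be read within each library, where no library scaling enters. Basal keratins held 62.1%, 61.2% and 60.7% of keratin TPM in PBS and 55.6%, 55.4% and 55.6% in HMU libraries. Stress keratins held 33.2%, 33.6% and 33.8% in PBS and 40.3%, 40.5% and 40.0% in HMU libraries, a difference of 6.70 percentage points. Replicate 2 did not stand apart here: the SD of the HMU libraries was 0.255 percentage points for the stress share and 0.140 for the basal share. Cornifying suprabasal keratins went from 3.13% ± 0.411 to 1.24% ± 0.194, simple keratins from 1.67% ± 0.0499 to 2.27% ± 0.115, mucosal and corneal keratins from 0.223% ± 0.00874 to 0.381% ± 0.0169, sheath keratins from 0.0714% ± 0.00881 to 0.229% ± 0.0148, hair keratins from 0.00773% ± 0.000675 to 0.0502% ± 0.000654, and the 3 others from 0.0216% ± 0.00134 to 0.0714% ± 0.0104. None of these 8 shares overlapped between the groups, and each had a two-sided exact permutation p of 0.1, the smallest that 3 against 3 allows, also after adjustment over the 8 shares, which are not independent because they sum to the whole. Most of the shift lay in KRT17, from 13.2% to 17.6% of keratin TPM, KRT6B, from 1.26% to 3.71%, KRT14, from 23.5% to 18.7%, and KRT16, from 5.89% to 3.60%.

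**Figure D4:**
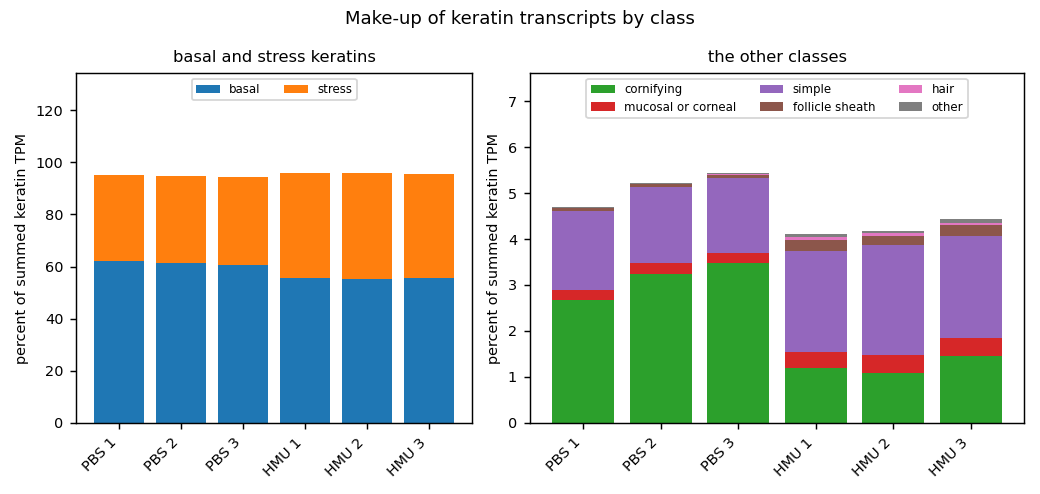
Share of the summed keratin TPM (percent) held by each class in every library, with basal and stress keratins on the left and the smaller classes on the right on their own axis. The 3 HMU libraries have stress shares of 40.0% to 40.5% against 33.2% to 33.8% in PBS libraries, and cornifying shares of 1.08% to 1.46% against 2.68% to 3.47%.

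The balance of the filament partners was less clear. Type I over type II TPM was 0.863, 0.866 and 0.879 in PBS and 0.734, 0.878 and 0.709 in HMU libraries. HMU replicate 2 lay with the PBS libraries, the other HMU libraries below them, and the difference of -0.0958 had an exact permutation p of 0.3. By counts the ratio was 0.6222, 0.6255 and 0.6356 in PBS and 0.5191, 0.6196 and 0.5019 in HMU libraries. In that unit every HMU library lay below every PBS library (exact permutation p 0.1). KRT14 over KRT5 was 0.630, 0.626 and 0.630 in PBS and 0.502, 0.588 and 0.470 in HMU libraries, below PBS in all 3 (exact permutation p 0.1). KRT16 with KRT17 over the 3 KRT6 copies was 1.32 ± 0.0128 in PBS and 1.12 ± 0.162 in HMU libraries, which overlapped (exact permutation p 0.2).

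**Figure D5:**
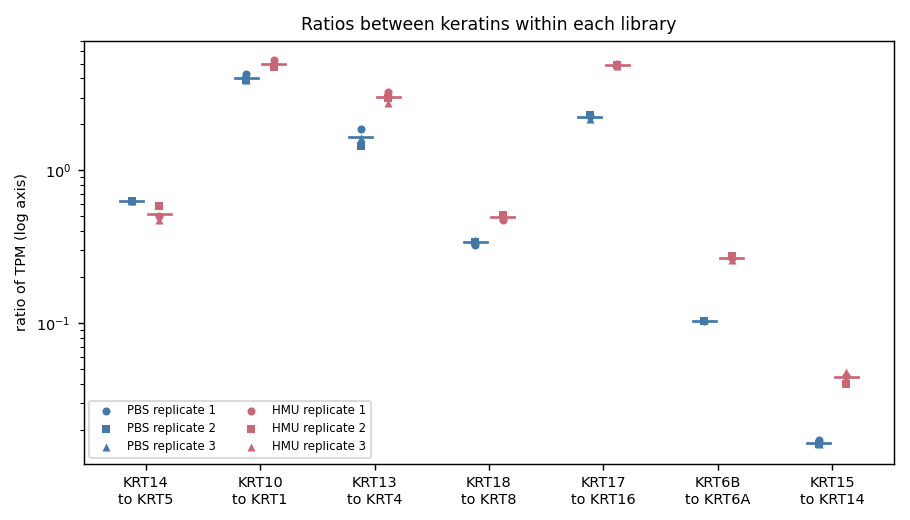
Ratio of TPM between pairs of keratins in each library (log axis), with PBS libraries in blue, HMU libraries in red and horizontal bars for the group means. KRT17 to KRT16 went from 2.24 to 4.89 and KRT6B to KRT6A from 0.104 to 0.267, and in none of the 7 pairs shown did the groups overlap.

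Genes whose proteins anchor, bundle or bind keratin filaments were read from a list of 35, of which 33 were tested and 17 were higher and 8 lower (11 and 13 with library sizes only), where 24.8% and 24.9% of all genes tested were called (13.4% and 43.7% with library sizes only). Without HMU replicate 2, 18 were higher and 9 lower. Over the list the median change was 0.21 on the log2 scale, against 0.00 over all genes. The 3 largest called changes with at least 1 CPM were rises, in TGM5, TGM1 and RPTN. TGM5 (log2 3.59, SE 0.21, adjusted p 1e-05) and TGM1 (log2 2.56, SE 0.059, adjusted p 2.3e-07) are transglutaminases that cross-link the cornified envelope. RPTN (log2 3.00, SE 0.30), repetin, is a filament-associated envelope protein. TGM1 had 140.5, 140.1 and 137.9 CPM in PBS and 822, 845 and 809 CPM in HMU libraries. The highest library of TGM5 had 6.23 CPM and that of RPTN 1.37 CPM, both after HMU. In PBS libraries RPTN had 0.141, 0.140 and 0.111 CPM, too low for the filter on low counts. Like KRT37 and KRT86, it was kept for the test by the HMU group alone, where it was high. Its call is not separate from that choice. Without a filter on low counts, edgeR's adjusted p for RPTN was 0.00034, from the same counts. Among 20 other intermediate filament genes 16 were tested, of which 2 were higher and 6 lower (2 and 9 with library sizes only), with a median of -0.11; the 8 calls of 16 are close to the 49.7% of all genes tested. In this second list, 2 were higher and 5 lower without HMU replicate 2. For neither list is a share over all genes without that library given here. NES, nestin, rose from at most 0.405 to at least 1.02 CPM (log2 2.30, SE 0.31, adjusted p 0.0007). SYNC, syncoilin (log2 -1.58, SE 0.11, adjusted p 2.5e-05), and IFFO2 (log2 -1.26, SE 0.12, adjusted p 0.0001) fell.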

How the data were processed

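Total RNA of VK2/E6E7 cells was made into stranded mRNA libraries with a TruSeq kit, per the labels' protocols. Per the file headers, the authors deposited for every gene and library a read count, an FPKM and a TPM. The deposited read counts are whole numbers and were used as raw counts. The deposited FPKM corrects for transcript length and depth, and the deposited TPM for length with a set total per library. StringTie 2.1.3b, HISAT2 2.1.0, Trimmomatic 0.38 and FastQC 0.11.7, with the build GRCh38, are credited in the submitters' processing notes. The counting tool, its annotation, its use of strand and its handling of reads with several matches were not stated in the labels or headers. The treated columns are headed HMO where the labels write HMU, and were taken as the HMU samples with the same numbers; 0 columns of sample values were left unused.

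Counts were fitted over the whole table in R 4.3.3 with edgeR 4.0.16 (filterByExpr, TMM, glmQLFit with default settings, glmQLFTest, group as the only term), and p-values were Benjamini-Hochberg adjusted over the 17990 genes tested. TMM factors were 1.10 to 1.11 in PBS and 0.893 to 0.920 in HMU libraries, and the biological coefficient of variation was 11.9%. SE is the log2 fold change over the square root of F. Near-identical genes were also summed and refitted in the whole table. Shares and ratios per library were compared by exact two-sided permutation of the 6 libraries with scipy 1.17.1. Intervals and the floor of 3 counts cover counting error only. Transcripts were aligned with Biopython 1.88 from GENCODE 29, and coordinates are those of RefSeq on GRCh38.p14, matched by gene ID for all 55 keratins. The fit was tested on simulated data with far fewer changed genes than were called here, which does not test the zero set by the scaling. Alternatives were DESeq2 1.42.0, RLE scaling, library sizes only, no filter, an adjusted p under 0.01, limma 3.58.1 on the log2 of FPKM (pseudocount 1) or of TPM (pseudocount 1 or 0.1), a replicate block and leaving out each library. Sums with pseudogene rows and a newer quasi-likelihood fit were added after seeing the data. Keratins with a mean of at least 1 CPM in a group were named, with those called at 0.1 CPM or more, and the 3 largest called changes of each other list. The members, classes and lists were chosen with earlier results of these data known.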

Additional observations from a re-analysis of the deposited data

How the results depend on the processing

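Several results changed with the scaling or the unit, and the cause was not tested; the values on log2 TPM differ from the others in test, unit and length correction at once. With library sizes only, keratins called lower numbered 12, keratin-linked genes 11 higher and 13 lower, KRT17 with its pseudogenes stood at 0.30, KRT16 with its pseudogenes at -0.47, KRT8 with its pseudogenes at -0.06, and KRT14, KRT16 and KRT17 summed at -0.23, or at -0.20 with their pseudogenes. On that scale KRT5 was -0.19, KRT8 -0.05, KRT74 -0.19, KRT76 -0.01 and KRT78 -0.15, KRT6A and KRT17 lost their calls, and KRT5, KRT14, KRT71, KRT72 and KRT77 were called lower. On log2(TPM + 1) and on log2(TPM + 0.1), keratins called lower numbered 15, keratin-linked genes 10 higher and 14 lower, and other intermediate filament genes 1 higher and 11 or 10 lower. There KRT5 was -0.31, KRT6A -0.06, KRT8 -0.18, KRT76 -0.13, KRT74 -0.20 or -0.30 and KRT78 -0.24 or -0.26, and KRT6C (0.14) and KRT17 (0.16) lost their calls. KRT5 (adjusted p 0.014 or 0.0039), KRT9, KRT14, KRT71, KRT72, KRT73 and KRT77 were among the further keratins called lower. On log2(FPKM + 1), keratin-linked genes were 11 higher and 13 lower, KRT5 was -0.18, KRT8 -0.05, KRT74 -0.08, KRT76 -0.00 and KRT78 -0.11, KRT6A and KRT17 lost their calls, and KRT71, KRT72 and KRT73 were called lower. At an adjusted p under 0.01, 4 keratins and 4 keratin-linked genes were lower. By TPM the keratin share differed by -1.57 percentage points. With the KRT16 and KRT17 pseudogene rows counted as stress keratins, the stress share differed by 7.16 percentage points. These rows include KRT16P6, which is nearer to the basal KRT14 in sequence.

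Leaving out each library in turn gave 20 to 22 keratins higher and 6 to 10 lower, and 5 to 9 keratin-linked genes lower, with 5 without PBS replicate 3. Shares over all genes are given only for the main fit and for library sizes only, so counts in the other settings have no background beside them. The log2 fold change ranged from -0.13 to 0.16 for KRT14, KRT16 and KRT17 summed, from -0.09 to 0.19 with their pseudogenes, from -0.34 to -0.09 for KRT16 with its pseudogenes, from -0.66 to -0.39 without KRT16P6, and from 0.10 to 0.31 for KRT8 with its pseudogenes, which passed the test without HMU replicate 3. KRT9 ranged from -0.37 to 0.02, crossing 0 without PBS replicate 1 (0.02) or HMU replicate 3 (0.01). KRT74 ranged from -0.12 to 0.27, crossing 0 without PBS replicate 3 (-0.10) or HMU replicate 1 (-0.12). KRT71 (-0.68) and KRT72 (-0.96) were called without HMU replicate 1 and KRT8 (0.32) without HMU replicate 3. KRT77 was 0.04 without PBS replicate 2 and 0.02 without HMU replicate 2. Over 45 named genes and 674 alternative values, 610 kept direction and side of the threshold, 10 lost the call, 26 gained it and 28 changed direction.

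Same-numbered libraries had correlations of -0.019, 0.035 and 0.048 in their deviations from the group means, and differently numbered ones -0.06 to 0.026. These small correlations cannot decide whether replicate numbers pair the samples. A replicate block gave 21 keratins higher and 7 lower, and changed no call of a summed gene or a named gene. Members with few counts, such as KRT37 and KRT85, are limited by depth.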
